A study of Mus musculus with 17 samples.

Results

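The 9 genes described here encode inhibitory receptors of T cells and factors associated with T cell exhaustion. They were chosen by name from the deposited count table, are 9 of its 48709 genes, and are Pdcd1, Lag3, Ctla4, Tigit, Havcr2, Cd160, Tox, Tox2 and Entpd1. The study sequenced RNA of CD8+ T cells, the cytotoxic lineage, taken from 2 tissues of mice of 2 strains. The 17 libraries fall into 4 groups: brain of APP-PS1 mice (4 libraries, 3 male and 1 female), brain of wild-type (WT) mice (5, all female), blood of APP-PS1 mice (3, 2 male and 1 female) and blood of WT mice (5, all female). APP-PS1 mice carry a chimeric mouse/human amyloid precursor protein gene with the Swedish mutation and a mutated presenilin 1 of human origin (PS1-dE9), whose expression the prion protein promoter directs to neurons of the central nervous system. The design text speaks of aged mice, without an age in months in the sources used here. Brain cells came from both hemispheres, with brainstem and cerebellum, after mechanical homogenization and removal of myelin in Percoll, whereas red cells were lysed in the blood samples. The design names 7 APP-PS1 and 10 WT mice, the same numbers as the libraries of each strain, but no label states which animal gave which library. Brain libraries are not tied to blood libraries by any label either, and the p-values below measure the spread between libraries, which may in part be technical.

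An inhibitory receptor sits on the surface of an activated T cell and, on meeting its ligand, dampens signalling from the antigen receptor. Under chronic antigen exposure CD8+ T cells can hold several such receptors at once and lose effector functions, a state called exhaustion, in which the nuclear protein Tox is required. PD-1, the product of Pdcd1, is also carried by tissue-resident memory T cells, including those of the brain, so its transcript alone does not mark exhaustion.

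The libraries were shallow, with totals from 27646 to 214670 counts, so 1 count was worth between 4.66 and 36.2 CPM, the unit that scales counts to a common library total. The counts of the 8 listed CD8 T cell markers summed to between 5659 and 10105 CPM in every library. Marker lists of other cells were not at 0. The 6 listed B cell genes summed to 53.3 to 574 CPM in APP-PS1 brain, 40.8 to 97.7 CPM in WT brain, 146 to 302 CPM in APP-PS1 blood and 108 to 419 CPM in WT blood, with 2 of them, among them Ms4a1, at 0 counts in all 17 libraries. The 12 listed microglial genes summed to between 0 and 160 CPM in APP-PS1 brain, 0 and 109 CPM in WT brain, 25.6 and 195 CPM in APP-PS1 blood and 97.8 and 174 CPM in WT blood, with 6 of them, such as Tmem119, P2ry12 and Trem2, at 0 counts throughout. Of the 7 listed genes of natural killer and gamma-delta T cells, 5 were in the table and summed to 187 to 498 CPM in APP-PS1 brain, 235 to 518 CPM in WT brain, 64.7 to 414 CPM in APP-PS1 blood and 167 to 368 CPM in WT blood, with Ncr1 and Trdc at 0 counts. The 4 listed CD4 and regulatory T cell genes reached at most 78.2 CPM in any library, with Cd4 and Foxp3 at 0 counts, and the 8 macrophage and monocyte genes in the table at most 79.1 CPM, with Cd14, Adgre1, S100a8 and S100a9 at 0 counts. Other members of these lists did have counts. In the group with the most counts, WT blood, these were 4 B cell genes (183 counts), 3 microglial genes (77) and 3 macrophage and monocyte genes (22). In WT brain, likewise the group with the most, 3 natural killer and gamma-delta T cell genes had 211 counts and 2 CD4 and regulatory T cell genes had 20. The 7 neuronal and glial genes reached at most 196 CPM and the 4 endothelial genes at most 25.6 CPM. The 5 listed red cell genes summed to between 36.2 and 873 CPM in brain libraries and between 2152 and 9967 CPM in blood libraries, and the part of these lists in the differences between tissues was not tested. APP-PS1 brain replicate 1 was the shallowest library and had the lowest median correlation with the other libraries (0.611, against 0.654 to 0.781 for the rest), and WT blood replicate 4 had a single count of Xist, the X-inactivation transcript of female cells, and 0 of Y-linked genes, although its label is female.

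The 9 genes were sparse. Over all libraries Tox had 171 counts, Cd160 125, Pdcd1 113, Entpd1 68, Tigit 65, Lag3 59, Tox2 17, Ctla4 12 and Havcr2 10. Only Tox, Cd160 and Pdcd1, 3 of the 9, passed the expression filter of edgeR, which kept 2366 genes. All 9 had at least 10 counts over all libraries, the minimum for exact permutation tests of mean CPM, which were run on 8682 genes. A gene with 0 counts in a group is not shown to be absent: 3 counts over the group, taken as the floor, correspond to 10.1 CPM in APP-PS1 brain, 5.75 CPM in WT brain, 23.7 CPM in APP-PS1 blood and 5.04 CPM in WT blood, and this floor covers counting error only. Each library is 1 value per gene, so fewer cells that express a gene and less RNA of it per cell cannot be told apart.

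**Figure D1:**
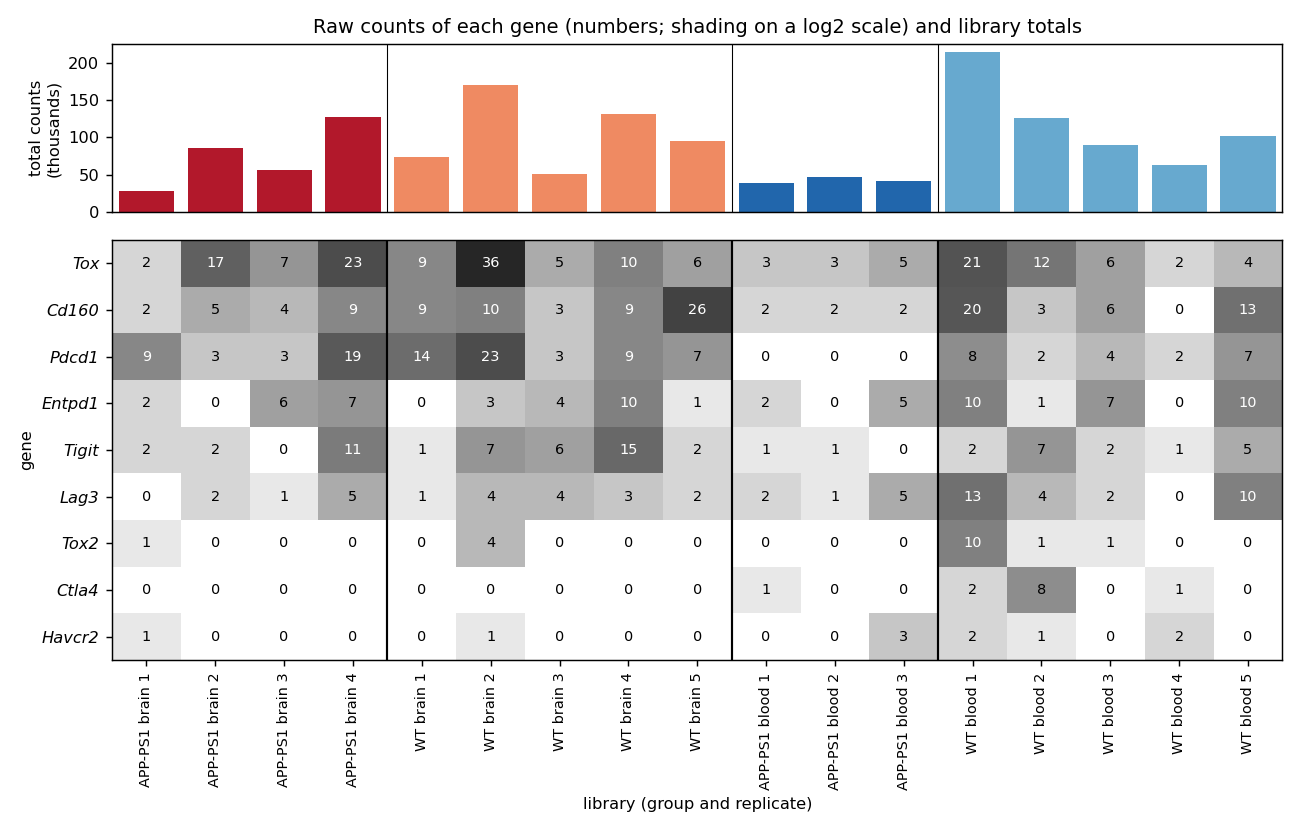
Raw counts of the 9 genes (rows) in the 17 libraries (columns, by group), with library totals as bars above. Pdcd1 has counts in all 9 brain libraries and 0 in the 3 APP-PS1 blood libraries, while Ctla4 has 0 in all 9 brain libraries and counts in only 4 of the blood libraries.

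Pdcd1 had counts in all 9 brain libraries and Ctla4 in none of them, and their promoters are shown for this contrast. Ctla4 was sparse, with 12 counts over 4 blood libraries, 8 of them in 1 library, so the contrast rests on few counts. The sequences are RefSeq promoters of the build GRCm38.p6, 250 bases before and 50 after the RefSeq start of transcription, written 5′ to 3′ along the gene. The capitals mark every match to GGAAA, the core letters of sites of the NFAT factors, which act downstream of the antigen receptor; both strands were searched, so a match on the opposite strand reads TTTCC. Pdcd1 is at chr1:94052504-94052803 on the minus strand, and Ctla4 at chr1:60908775-60909074 on the plus strand.
Pdcd1: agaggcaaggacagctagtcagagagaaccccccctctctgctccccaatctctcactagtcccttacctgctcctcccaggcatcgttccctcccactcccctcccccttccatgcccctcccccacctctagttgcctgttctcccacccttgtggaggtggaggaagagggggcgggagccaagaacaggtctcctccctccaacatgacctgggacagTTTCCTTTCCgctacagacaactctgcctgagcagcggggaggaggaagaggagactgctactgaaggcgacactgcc
Ctla4: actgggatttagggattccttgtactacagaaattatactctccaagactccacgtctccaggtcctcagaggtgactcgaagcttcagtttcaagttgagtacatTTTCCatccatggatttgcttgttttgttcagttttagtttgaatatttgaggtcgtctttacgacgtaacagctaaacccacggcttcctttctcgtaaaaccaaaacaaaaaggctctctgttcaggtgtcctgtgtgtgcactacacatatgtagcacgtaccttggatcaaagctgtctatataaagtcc
The Pdcd1 window held 2 matches and the Ctla4 window 1. Of all 32544 promoters of this length, 61.5% held at least 1 match, so these letters are common. Neither window held TGANTCA, the letters of AP-1 sites, which 7.79% of the promoters held.

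Pdcd1 (chr1:94038305-94052553, minus strand; gene positions are in GRCm38) encodes PD-1, which recruits phosphatases to the antigen receptor. Its mean was higher in brain than in blood in both strains. It had 326, 35.1, 53.3 and 149 CPM in APP-PS1 brain (9, 3, 3 and 19 counts), against 0 counts in each of the 3 APP-PS1 blood libraries. It had 191, 135, 58.6, 68.3 and 73.0 CPM in WT brain, against 37.3, 15.8, 44.6, 31.9 and 68.7 CPM in WT blood. In APP-PS1 mice every brain library lay above every blood library, whereas in WT mice 3 of 5 brain libraries lay above all blood libraries and 4 of 5 blood libraries lay below all brain libraries. In single APP-PS1 blood libraries, however, the floor of 3 counts corresponds to 64.7 to 76.8 CPM. The APP-PS1 brain values of 35.1 and 53.3 CPM lie below that, so the separation by library was not resolved at this depth.

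Pdcd1 averaged 141 ± 133 CPM in APP-PS1 brain (SD, n = 4), 5.93-fold the floor of APP-PS1 blood. This ratio to the floor was 3.33-fold without APP-PS1 brain replicate 1, whose 326 CPM rest on 9 counts in the shallowest library. It was 3.76-fold without APP-PS1 blood replicate 2. Only the blood side is set at a limit, so the ratio is not a lower bound of the fold. Pdcd1 averaged 105 ± 56.5 CPM in WT brain and 39.7 ± 19.4 CPM in WT blood (SD, n = 5 each), a ratio of 2.65. Averaged over the strains, the brain minus blood difference was 103 CPM, and edgeR's quasi-likelihood test gave a log2 fold change of 3.90 (SE 0.92, Benjamini-Hochberg adjusted p = 0.00793). This fitted value depends on the group with 0 counts and is not a bound. Pdcd1 was the only one of the 3 genes tested to be called at an adjusted p under 0.05, against 2.58% of all 2366 genes in either direction, 1.27% higher and 1.31% lower in brain. Every gene tested had at least 117 CPM in 3 libraries. Pdcd1 reached this in brain only (326 and 149 CPM in APP-PS1 brain, 191 and 135 CPM in WT brain), against at most 68.7 CPM in blood. It thus entered the tested set through the tissue where it is high, and its share of the 3 genes is not evidence.

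The 17 edgeR fits that each left out 1 library all kept APP-PS1 blood at 0 counts of Pdcd1. They could not test that group, on which the fitted value depends. Averaged over strains, the log2 fold change was 3.65 without APP-PS1 brain replicate 1 (adjusted p = 0.0253) and 3.89 without WT blood replicate 4 (adjusted p = 0.0121). The call of Pdcd1 averaged over strains remained in each of the 17 fits (3.65 to 4.08, adjusted p 0.00562 to 0.0286). It ended with female libraries only (4.14, adjusted p = 0.170), a fit with 1 APP-PS1 library per tissue, and after thinning every library to the smallest total Pdcd1 fell below the filter. The exact permutation test of mean CPM, two-sided and permuting tissue within strain, gave p = 0.000680 and, adjusted over all 8682 genes, p = 0.134, so it did not pass there. This form of the test was chosen after both forms were seen. The other form, by absolute difference, gave a larger p, stated with the processing below. By the chosen form 0 of the 8682 genes passed adjustment, and 8.94% had an unadjusted p under 0.05.

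Within each strain edgeR called 0 of the 3 genes it tested, against 0.549% of all genes in APP-PS1 mice and 0.761% in WT mice. In APP-PS1 mice the adjusted p was 0.0579 with edgeR and 0.0483 with DESeq2, and the exact permutation p was 0.0571, the smallest that 4 against 3 libraries allow. Without APP-PS1 brain replicate 1 the mean in APP-PS1 brain was 79.1 CPM above that in APP-PS1 blood, against 141 CPM with it. In WT mice the log2 fold change was 1.33 (SE 0.64, edgeR adjusted p = 0.621), and the exact permutation p was 0.0238 before adjustment and 0.694 after it. Pdcd1 was the 1 gene of the 9 with an unadjusted exact p under 0.05 in WT mice, beside 6.47% of all genes. The groups of Pdcd1 and Cd160 did not overlap between APP-PS1 brain and APP-PS1 blood, 2 of the 9 genes, against 5.49% of the 8682 genes in either direction and 3.04% higher in brain. In WT mice 0 of the 9 genes had groups without overlap, against 1.43% of all genes.

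Ctla4 (chr1:60887000-60915832, plus strand), whose product CTLA-4 competes with the costimulatory receptor CD28 for its ligands, had its few counts in blood libraries only. It had 0 counts in all 4 APP-PS1 brain and all 5 WT brain libraries, against 1 count in APP-PS1 blood and 11 counts in WT blood. Of the 11 counts, 8 came from WT blood replicate 2 (63.3 CPM), 2 from replicate 1 and 1 from replicate 4. The WT blood mean of 17.7 ± 26.3 CPM (SD, n = 5) was 3.08-fold the floor of WT brain, which is not a lower bound of the fold. The groups overlapped, since 2 WT blood libraries were also at 0. Without WT blood replicate 2 the difference in WT mice was -6.32 CPM, against -17.7 CPM with it, and the ratio to the floor was 1.10-fold. The difference averaged over strains did not pass (exact permutation p = 0.0714, adjusted p = 0.616). With the looser filter of 10 counts over all libraries, edgeR gave a log2 fold change of -3.23 averaged over strains (unadjusted p = 0.00762, adjusted p = 0.243), beside a median of 0.18 over all genes at that filter. This fitted value depends on the brain groups with 0 counts and is not a bound.

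Tigit (chr16:43648867-43664146, minus strand) encodes a receptor that competes with CD226 for shared ligands. It averaged 45.5 ± 40.5 CPM in APP-PS1 brain (n = 4), 61.4 ± 50.5 CPM in WT brain (n = 5) and 30.4 ± 20.6 CPM in WT blood (SD, n = 5), and had 2 counts in APP-PS1 blood, below the floor. Single libraries ranged from 0 to 86.1 CPM in APP-PS1 brain and from 13.6 to 117 CPM in WT brain, against 0 to 25.6 CPM in APP-PS1 blood and 9.32 to 55.4 CPM in WT blood. The groups overlapped in both strains. Brain was 30.3 CPM above blood averaged over strains, which did not pass (exact permutation p = 0.101, adjusted p = 0.662).

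Cd160 (chr3:96798763-96829351, minus strand) encodes a receptor of the ligand HVEM that is found on cytotoxic lymphocytes. It had 72.3, 58.5, 71.1 and 70.5 CPM in APP-PS1 brain, against 51.2, 43.2 and 48.7 CPM in APP-PS1 blood. These 2 groups did not overlap (means 68.1 ± 6.43 CPM in APP-PS1 brain and 47.7 ± 4.11 CPM in APP-PS1 blood, SD; exact permutation p = 0.0571, the smallest possible), but each APP-PS1 blood value rests on 2 counts. WT libraries spread more, from 58.6 to 271 CPM in brain and from 0 to 128 CPM in blood, with WT brain replicate 5 alone giving 26 of the 57 counts of its group. The log2 fold change averaged over strains was 0.62 (SE 0.54, edgeR adjusted p = 0.720). The exons of Cd160 overlap those of Pdzk1 on the opposite strand, which had 1 count over all libraries.

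Lag3 (chr6:124904361-124911705, minus strand) encodes a receptor that binds MHC class II. Its mean was lower in brain than in blood in both strains, 20.1 ± 16.2 CPM in APP-PS1 brain (n = 4) against 64.8 ± 51.4 CPM in APP-PS1 blood (SD, n = 3), and 31.8 ± 26.2 CPM in WT brain against 42.5 ± 38.0 CPM in WT blood (SD, n = 5 each). The libraries overlapped in both strains, and the difference of -27.7 CPM averaged over strains did not pass (exact permutation p = 0.139, adjusted p = 0.707). Without APP-PS1 blood replicate 3, which held 5 of the 8 Lag3 counts of its group, the difference was -13.5 CPM. Havcr2 (chr11:46454935-46481255, plus strand), which encodes TIM-3, a receptor that binds galectin-9, had 1 count in APP-PS1 brain, 1 in WT brain, 3 in APP-PS1 blood, all in 1 library, and 5 in WT blood. At this depth no difference in Havcr2 was detectable (exact permutation p = 0.333 averaged over strains).

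Entpd1 (chr19:40612366-40741602, plus strand) encodes CD39, a surface enzyme that degrades extracellular ATP and is carried by terminally exhausted cells. It averaged 58.5 ± 44.5 CPM in APP-PS1 brain (n = 4), 36.4 ± 37.6 CPM in WT brain (n = 5), 57.6 ± 61.1 CPM in APP-PS1 blood (n = 3) and 46.1 ± 42.8 CPM in WT blood (SD, n = 5). Each group held a library at 0, and the highest library of each lay between 78.2 and 122 CPM. The difference averaged over strains was -4.44 CPM (exact permutation p = 0.849).

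Tox (chr4:6686353-6991557, minus strand), the nuclear factor required for exhaustion, had counts in all 17 libraries. It had 72.3, 199, 124 and 180 CPM in APP-PS1 brain, against 76.8, 64.7 and 122 CPM in APP-PS1 blood. It had 122, 212, 97.7, 75.9 and 62.6 CPM in WT brain, against 97.8, 94.9, 66.9, 31.9 and 39.3 CPM in WT blood. The means were higher in brain in both strains, but the libraries overlapped. Averaged over strains the log2 fold change was 0.74 (SE 0.41, edgeR adjusted p = 0.446) and the exact permutation p was 0.0399, or 0.527 adjusted over all 8682 genes. Tox2 (chr2:163203125-163324170, plus strand), a relative of Tox, had 1 count in APP-PS1 brain, 4 in WT brain, all in replicate 2, 0 in APP-PS1 blood and 12 in WT blood, of which 10 came from replicate 1. No difference in Tox2 was detectable (exact permutation p = 1.00 averaged over strains, where the mean difference was 0.312 CPM).

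Across the 9 genes the mean CPM averaged over strains was higher in brain for 5 and lower for 4. Pdcd1 and Tox, 2 of the 9, had an unadjusted exact p under 0.05, beside 8.94% of all genes. Summed over the 9 genes, libraries held 495 ± 166 CPM in APP-PS1 brain (n = 4), 471 ± 34.8 CPM in WT brain (n = 5), 306 ± 169 CPM in APP-PS1 blood (n = 3) and 328 ± 133 CPM in WT blood (SD, n = 5). The sums of brain and blood overlapped, ranging from 340 to 687 CPM in APP-PS1 brain and 425 to 518 CPM in WT brain, against 151 to 487 CPM in APP-PS1 blood and 128 to 481 CPM in WT blood.

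In order of mean CPM, Pdcd1 and Tox both ran APP-PS1 brain, WT brain and then blood, with WT blood above APP-PS1 blood for Pdcd1 and below it for Tox. Cd160 ran WT brain, APP-PS1 brain, WT blood, APP-PS1 blood, and Tigit WT brain, APP-PS1 brain, WT blood, with APP-PS1 blood below its floor and not placed. Lag3 ran APP-PS1 blood, WT blood, WT brain, APP-PS1 brain, and Entpd1 APP-PS1 brain, APP-PS1 blood, WT blood, WT brain. Among neighbours in these orders, the groups overlapped in each case. Tox2, Ctla4 and Havcr2 were too sparse to order.

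The comparison of strains within a tissue gave no call among the 9 genes. In brain, edgeR called 0.00% of 2366 genes, with 99 at an unadjusted p under 0.05, and DESeq2 called 0, with 108 at an unadjusted p under 0.05. For Pdcd1 the log2 fold change between APP-PS1 brain and WT brain was 0.20 (SE 0.66, edgeR adjusted p = 0.999; exact permutation p = 0.698), and without APP-PS1 brain replicate 1 it turned to -0.34. Tox gave 0.36 (SE 0.50) and Cd160 -0.81 (SE 0.67), both with an edgeR adjusted p of 0.999. The SEs leave room for differences of either sign, so they do not show that the strains were alike. The exact permutation p of the other 6 genes between brains ranged from 0.492 to 1.00, and 0 of the 9 genes had groups without overlap, against 1.47% of all genes. An unadjusted exact p under 0.05 was reached by 0 of the 9 genes, against 3.77%. Males stood only among the APP-PS1 libraries, and with sex as a term edgeR also called 0 genes there.

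In blood, Pdcd1 had 0 counts in each of the 3 APP-PS1 libraries and between 2 and 8 counts in each of the 5 WT libraries. The WT blood mean of Pdcd1 was 1.67-fold the floor of APP-PS1 blood (1.06-fold without APP-PS1 blood replicate 2). This is not a lower bound, since the WT mean has its own error. Counting error alone allowed up to 29.2 CPM in APP-PS1 blood and down to 24.5 CPM in WT blood (95% limits), so these ranges overlapped. The library values of the 2 groups did not overlap, as for 4.93% of the 8682 genes in either direction. The exact permutation p was 0.0357, the smallest that 3 against 5 libraries allow, and 0.724 adjusted over all genes, and edgeR gave an adjusted p of 0.487. The APP-PS1 blood libraries were the less deep ones, with 39055 to 46336 counts against 62604 to 214670 in WT blood. No other of the 9 genes had groups without overlap between APP-PS1 blood and WT blood, and edgeR called 0.0423% of genes there. The test of whether the brain and blood difference itself differed between strains gave no call for Pdcd1 (log2 difference 5.13, SE 2.09, edgeR adjusted p = 0.937; exact permutation p = 0.291 on CPM), against 0.0423% of all genes called. By the exact test 0 of the 9 genes had an unadjusted p under 0.05 there, against 5.59% of all genes. The log2 difference of 5.13 for Pdcd1 depends on its 0 counts in APP-PS1 blood and is not a bound.

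**Figure D2:**
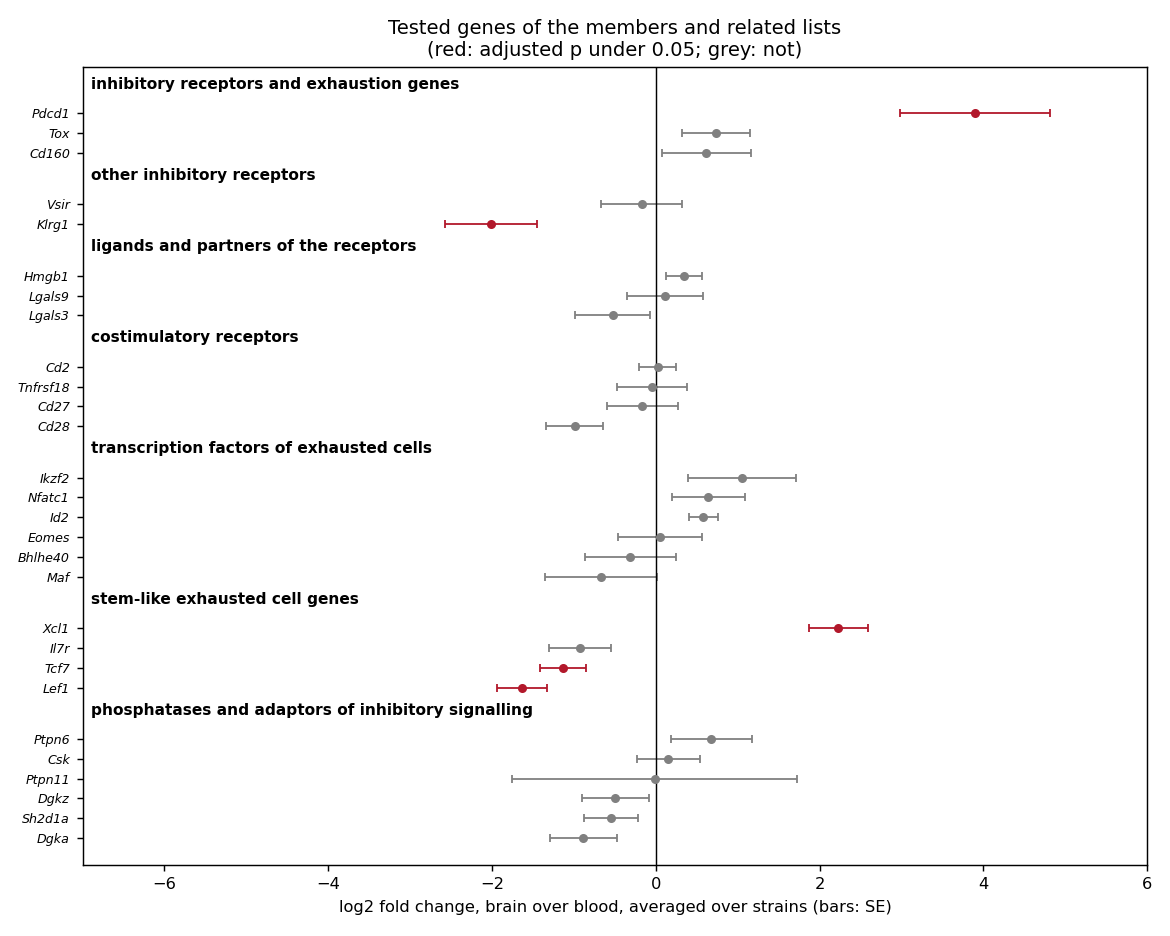
Log2 fold change of brain over blood averaged over strains (edgeR, bars are SE) for every tested gene of the 9 and of 6 related lists, with called genes in red. Pdcd1 at 3.90 and Xcl1 at 2.22 lie to the right, and Klrg1, Lef1 and Tcf7 to the left.

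Genes around these receptors were taken from 6 lists. Of 13 other inhibitory receptors listed, 12 were in the table and 2 were tested, and 1 fell: Klrg1, a receptor of terminally differentiated effector cells, averaged 31.8 ± 30.1 CPM in APP-PS1 brain (n = 4) and 105 ± 34.8 CPM in APP-PS1 blood (n = 3), and 30.1 ± 25.2 CPM in WT brain and 137 ± 91.2 CPM in WT blood (SD, n = 5 each). Its log2 fold change averaged over strains was -2.01 (SE 0.56, edgeR adjusted p = 0.0317). That call ended when any 1 of 7 libraries was left out (adjusted p up to 0.0744), namely APP-PS1 brain replicate 2, 3 or 4, WT brain replicate 2 or 5 and APP-PS1 blood replicate 1 or 3. Without WT blood replicate 5 Klrg1 was below the filter. Vsir, which encodes the receptor VISTA, had -0.17 (SE 0.50, adjusted p = 0.933), and Cd5, a damper of antigen receptor signalling, was below the filter.

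Of 8 genes of stem-like exhausted cells, 4 were tested, with a median log2 fold change of -1.03 averaged over strains beside 0.033 over all 2366 genes, and 1 rose while 2 fell. Xcl1, which encodes a chemokine, averaged 303 ± 111 CPM in APP-PS1 brain (SD, n = 4), against 24.3, 25.6 and 151 CPM in the APP-PS1 blood libraries, and 420 ± 114 CPM in WT brain against 75.2 ± 57.2 CPM in WT blood (SD, n = 5 each), a log2 fold change of 2.22 (SE 0.36, edgeR adjusted p = 2.31e-05). Tcf7 and Lef1, transcription factors that are also high in naive T cells, fell by 1.13 (SE 0.28, adjusted p = 0.0111) and 1.63 (SE 0.30, adjusted p = 0.000249) on the log2 scale with edgeR. The call of Tcf7 ended without APP-PS1 blood replicate 3 (adjusted p = 0.0594). Il7r, the interleukin-7 receptor chain, had -0.93 and was not called (edgeR adjusted p = 0.278), but it was called without WT blood replicate 5 (-1.06, adjusted p = 0.0194).

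Of 13 transcription factors of exhausted cells, 6 were tested and 0 were called (median 0.31 averaged over strains). Id2, a regulator of effector differentiation, had 0.58 (SE 0.18, edgeR adjusted p = 0.0681), Nfatc1 0.64 (adjusted p = 0.589) and Eomes 0.050 (adjusted p = 0.979). Id2 was called with edgeR without APP-PS1 brain replicate 1 (0.64, adjusted p = 0.0388), APP-PS1 blood replicate 3 (0.75, adjusted p = 0.0305) or WT blood replicate 5 (0.64, adjusted p = 0.0177). Of 8 costimulatory receptors 4 were tested and 0 called (median -0.11), with Cd28 at -0.99 (SE 0.34, edgeR adjusted p = 0.118), Tnfrsf18 at -0.043 and Cd2 at 0.021. Of 11 ligands and partners of the receptors 3 were tested and 0 called (median 0.11), with Hmgb1 at 0.34, Lgals9, which encodes a TIM-3 ligand, at 0.11, and Lgals3 at -0.52. Of 8 phosphatases and adaptors of inhibitory signalling 6 were tested and 0 called (median -0.25), with Csk at 0.15, Dgkz at -0.49 and Sh2d1a at -0.54. At an unadjusted p under 0.05, 13.4% of all genes passed in this comparison with edgeR.

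The genes nearest to each of the 9 in pattern were found by Pearson's r of log2 CPM over the 17 libraries, among the genes tested by edgeR. These libraries share depth and group, and the values are a description. Nearest to Pdcd1 were Sf3b5 (r = 0.890), S100a6 (0.788) and Cd52 (0.782), and nearest to Tox were Setd1b (0.775), Pnisr (0.746) and Cox14 (0.737). Nearest to Tigit were Ptpmt1 (0.791), Bub3 (0.740) and Arhgap10 (0.737), and nearest to Lag3 were Ppp1ca (0.743), Larp1 (0.735) and Mea1 (0.723). Nearest to Entpd1 were 1810026B05Rik (0.708), Abracl (0.677) and Fubp3 (0.663), and nearest to Cd160 were Hist1h2ap (0.662), Sec13 (0.629) and Fam60a (0.629). Among the 9 genes themselves the highest r was 0.514, between Lag3 and Entpd1, and Pdcd1 had 0.395 with Tigit, 0.394 with Cd160, 0.19 with Tox and -0.39 with Lag3.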

How the data were processed

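RNA of CD8+ T cells in 17 libraries was used as the whole-number counts per gene that the authors deposited, not normalized. Per the submitters' processing notes, the tools were Bowtie2 2.2.2, HTSeq 0.11.2, FastQC and DESeq2, on GRCm38; the sources used here give no role for them, and no annotation release, strand setting, molecular identifiers or step that separated the CD8+ cells. Reads of overlapping genes may therefore be shared. Groups were taken from the labels. Replicate numbers were assigned here within each group, in the order of the deposited samples. Equal numbers in brain and blood do not mean matched libraries. Same-group libraries differed by more than sampling noise in all 29 pairs (chi-square per degree of freedom 2.59 to 5.70), so each was counted once.

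edgeR 4.0.16 (R 4.3.3; filterByExpr, TMM, robust quasi-likelihood fit) was run on all 17 libraries with 1 mean per group; p-values were adjusted by Benjamini-Hochberg over all 2366 genes, with calls under 0.05. Exact two-sided permutation tests of mean CPM (counts scaled to a common library total) used the 8682 genes with at least 10 counts and the same adjustment; p is 2 times the smaller one-sided value. That version was chosen after values under both were seen, and the exact test by absolute difference gave p = 0.00703 for Pdcd1 averaged over strains (adjusted p = 0.332). Correlations used TMM-scaled log2 CPM with a prior count of 2. Both tests were run on simulated data in which only genes past the edgeR filter were changed. Their power for sparser genes was not checked.

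The 9 genes, the other lists and the alternatives were chosen with earlier results of these data known. All 9 were named throughout; other lists' genes were named where edgeR called them in any comparison or where they were among the 3 with the highest mean CPM. Alternatives were other normalization, filters, DESeq2 1.42.0, a sex term, female libraries only, only the groups compared, thinning, other CPM scales and leaving out each library. Depth ranged from 27646 to 214670 counts per library. Gene positions came from GENCODE M21, and 7 of the 9 genes matched the RefSeq promoter table.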

Additional observations from a re-analysis of the deposited data

Results flagged for a closer look

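Among the 25 groups of 4 or 5 libraries in which 1 of the 9 genes had a spread, 8 held a library set apart from the others by more than Dixon's 95% critical value, where chance flags about 1 in 20 groups. In sparse genes a single library with counts among libraries at 0 meets that limit by construction.

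Ctla4 was at 63.3 CPM (8 counts) in WT blood replicate 2, with the next library at 15.97 CPM. Tox2 was at 46.6 CPM (10 counts) in WT blood replicate 1, with the next at 11.1 CPM, and at 23.5 CPM (4 counts) in WT brain replicate 2, with the others at 0. Lag3 was at 78.2 CPM (4 counts) in WT brain replicate 3, with the next at 23.5 CPM. Cd160 was at 58.5 CPM (5 counts) in APP-PS1 brain replicate 2, below the other 3 libraries, of which the nearest was at 70.5 CPM. A single count set apart Havcr2 in APP-PS1 brain replicate 1 (36.2 CPM), Havcr2 in WT brain replicate 2 (5.89 CPM) and Tox2 in APP-PS1 brain replicate 1 (36.2 CPM).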

How the results depend on the processing

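No paired analysis was possible because the labels carry no replicate numbers and tie no brain library to a blood library. Of 351 values set against the 9 genes' CPM differences under other settings, 327 kept direction and side of the threshold, as did 103 of 107 values of log2 fold changes from edgeR and DESeq2. The 351 include the exact test by absolute difference, which uses the same differences and so cannot change direction. They also include log2 fold changes from edgeR with at least 10 counts, some of which are among the 107 too. For the CPM differences the side of the threshold could hardly change. With all libraries, the permutation test passed 0 of the 8682 genes after adjustment in any comparison. Depth was a limit, since 6 of the 9 genes were below the edgeR filter.

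With female libraries only, called genes numbered 4 in APP-PS1 mice (13 with all libraries), 28 in WT mice (18), 18 averaged over strains (61), 0 between bloods (1) and 0 for the difference between strains (1). After thinning they numbered 9 in WT mice, 20 averaged over strains and 0 for the difference between strains. All WT libraries are female, so the fit with female libraries only held the same WT libraries, with 3856 genes tested against 2366. DESeq2 called 0 genes between bloods, where 623 genes had an adjusted p, and 0 for the difference between strains. Between bloods, 6 genes were called with at least 10 counts, 5 without a filter, 4 from the blood groups alone and 0 with a sex term. The log2 fold change of Pdcd1 averaged over strains was 3.80 with at least 10 counts (edgeR adjusted p = 0.00482), past the threshold that the permutation test missed, and 4.14 with female libraries only (adjusted p = 0.170), short of it.

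The following values had the opposite sign, none past a threshold, and the cause was not tested. After thinning, brain minus blood in WT mice was 7.23 CPM for each of Lag3, Tox2 and Entpd1, the average over strains was 8.14 CPM for Entpd1, and the difference between strains was -20.5 CPM for Tox. Pooled rates gave 0.124 CPM for Lag3 and -4.29 CPM for Tox2 between brains, -4.84 CPM for Entpd1 in APP-PS1 mice, -4.57 CPM for Tox2 averaged over strains and 3.88 CPM for Tigit in the difference between strains. TMM scaling gave -0.425 CPM for Tox2 averaged over strains and 0.0139 CPM for Tigit in the difference between strains. On log2(CPM + 10), the difference between strains was 0.20 for Tigit, 0.17 for Havcr2 and -0.081 for Tox, and that between bloods 0.16 for Cd160. In edgeR with at least 10 counts, the log2 fold change between bloods was -0.028 for Tox and -0.074 for Entpd1 (median of all genes there -0.41), that between brains -0.54 for Tox2 and the difference between strains 0.72 for Tigit; without a filter Tox had -0.060 between bloods. Female libraries gave 55.2 CPM for Tigit and -57.1 CPM for Entpd1 in the difference between strains, -4.21 CPM for Tox2 averaged over strains, and log2 fold changes averaged over strains of 2.66 for Vsir, 2.81 for Tnfrsf18 and -0.41 for Cd2. With a sex term these were 0.034 for Tnfrsf18 and -0.053 for Eomes.

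Leaving out each library in turn (for CPM within a strain or tissue, each library of the groups compared), called genes ranged from 8 to 21 in APP-PS1 mice, 0 to 3 between bloods and 0 to 1 for the difference between strains. The log2 fold change of Pdcd1 ranged from 5.98 to 6.83 in APP-PS1 mice, where the call appeared without APP-PS1 brain replicate 2 (edgeR adjusted p = 0.0497). This range depends on the 0 counts of Pdcd1 in APP-PS1 blood, which leaving out 1 library did not change, and is not a bound. Between brains the log2 fold change of Pdcd1 ranged from -0.34 to 0.57 (-26.1 to 70.7 CPM). Lag3 ranged from -22.3 to 3.17 CPM in WT mice and from -6.14 to 43.9 CPM between bloods, and kept its sign averaged over strains at -38.5 to -13.5 CPM. Ctla4 ranged from -17.7 to 2.21 CPM between bloods and from -2.21 to 17.7 CPM in the difference between strains, where Tigit ranged from -14.8 to 14.0 CPM. Havcr2 ranged from -27.5 to 9.04 CPM in APP-PS1 mice, -18.1 to 0.193 CPM averaged over strains, -1.18 to 10.9 CPM between brains, -9.83 to 26.7 CPM between bloods and -18.8 to 17.7 CPM in the difference between strains. Cd160 ranged from -30.2 to 1.73 CPM between bloods and -49.5 to 5.66 CPM in the difference between strains. Tox ranged on the log2 scale from -0.15 to 0.43 between bloods and from -0.068 to 0.50 in the difference between strains (-10.1 to 32.7 CPM). Tox2 ranged from -4.21 to 4.49 CPM averaged over strains and -4.71 to 9.04 CPM between brains. Entpd1 ranged from -28.0 to 32.8 CPM in APP-PS1 mice, -21.3 to 3.30 CPM in WT mice, -18.8 to 11.6 CPM averaged over strains, -20.5 to 40.3 CPM between bloods and -18.3 to 42.6 CPM in the difference between strains. Averaged over strains, log2 fold changes ranged from -0.44 to 0.10 for Vsir, -0.18 to 1.00 for Lgals9, -0.31 to 0.65 for Tnfrsf18, -0.18 to 0.26 for Cd2, -0.55 to 0.23 for Eomes and -0.040 to 0.25 for Csk.

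The calls of Klrg1, Tcf7 and Lef1 averaged over strains also ended under other settings with edgeR: Klrg1 with at least 10 counts (adjusted p = 0.0503), without a filter (0.0852) and with female libraries only (0.278), Tcf7 after thinning (0.0835) and with female libraries only (0.168), and Lef1 after thinning (0.0663). Id2 was called after thinning (adjusted p = 0.00407) and with DESeq2 (0.0489). Fits of only the groups compared give no value for the contrasts over all 4 groups.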
